A study of Homo sapiens with 4 samples.

Results

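The 39 COPI and COPII vesicle traffic genes carry newly made proteins and membrane between the endoplasmic reticulum (ER) and the Golgi apparatus. They were taken from a list of gene symbols by known role, drawn up with earlier results of these data known, and all 39 were found among the 27685 gene IDs of the files. They comprise 11 COPII genes, 11 COPI genes, 14 cargo receptor genes and 3 genes for SNAREs, the proteins that fuse vesicles with their target membrane. RNA was sequenced from NCC-IT-A3, a human embryonal carcinoma cell line, in 4 libraries. Cells in 2 libraries had received 100 nM barasertib, an inhibitor of the mitotic kinase Aurora B, for 4 days, and cells in the other 2 had received DMSO, the solvent, for the same time. Both groups grew in RPMI medium with 10% serum. The labels say neither that replicate libraries were grown as separate cultures nor that A3 is a single clone, so the p-values below measure the spread between libraries, which may be technical.

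COPII is the coat that forms vesicles leaving the ER. The GTPase SAR1 recruits an inner layer of SEC23 and SEC24, of which SEC24 binds cargo, and an outer cage of SEC13 and SEC31 follows, at exit sites organised by SEC16. COPI coats vesicles that return proteins and membrane from the Golgi to the ER: the GTPase ARF1 recruits a complex of alpha, beta, beta-prime, gamma, delta, epsilon and zeta subunits as a unit. Cargo receptors link proteins in the lumen to these coats, among them the p24 proteins (TMED genes), the KDEL receptors, which retrieve escaped ER chaperones, and the LMAN1 and MCFD2 pair, which carries glycoproteins such as coagulation factors.

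All 9 embryonal carcinoma markers were measured at 1 TPM or more, with a summed level of 6091 and 5747 TPM in the barasertib libraries and 5330 and 5249 TPM in the DMSO libraries (TPM is a transcript level corrected for gene length and scaled to the same total in each library). Markers of blood (0 of 4 at 1 TPM or more; PTPRC, CD3E and HBB at 0) and of yolk sac and endoderm (0 of 7; TTR at 0) were near 0, with sums of at most 0.420 and 2.02 TPM. Sums of the 6 trophoblast markers (2 at 1 TPM or more; CGB3 and KRT7 at 0) were 44.6 and 39.3 TPM with barasertib and 36.4 and 43.4 TPM with DMSO. The 6 fibroblast markers (2 at 1 TPM or more) summed to 13.6 and 13.7 TPM with barasertib and 8.70 and 9.83 TPM with DMSO. The 6 neural markers (3 at 1 TPM or more) summed to 107 and 97.3 TPM with barasertib and 80.5 and 80.4 TPM with DMSO. Their part in the results was not tested. Depth, estimated from the ratio of coverage to FPKM, was 4.59 and 4.52 Gb of aligned bases with barasertib and 4.22 and 4.43 Gb with DMSO. In such bulk samples, fewer cells making a message and less of it per cell cannot be told apart.

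Of the 39 genes, 19 fell with barasertib and 0 rose. The losses were small: 6 of 11 COPII genes, 4 of 10 tested COPI genes and 9 of 14 cargo receptor genes fell, by 0.85 to 0.14 on the log2 scale, and 0 of 3 SNARE genes were called in either direction. In all, 38 genes averaged 1 TPM or more and were tested, and the remaining gene, COPZ2, is given below by its values. A gene was called when its adjusted p was under 0.05 in limma (log2 of TPM + 1, two-sided, Benjamini-Hochberg adjustment over all 13938 tested genes). At an unadjusted limma p under 0.05, 22 of the 38 genes were lower and 0 higher, and 0 of the 3 SNARE genes passed. The share of all tested genes that passed this unadjusted threshold was not counted, so these counts have no background. By the same adjusted call 7.44% of all tested genes fell and 22.0% rose. Both barasertib libraries lay below both DMSO libraries for 25 of the 39 genes, all of them tested, against 19.7% of all tested genes. They lay above both DMSO libraries for 3 genes, TMED4, SEC22B and COPZ2, of which COPZ2 was not tested. The share of all tested genes that lay above in this way was not counted. The median log2 change was -0.17 over the 38 genes and 0.11 over all tested genes.

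**Figure D1:**
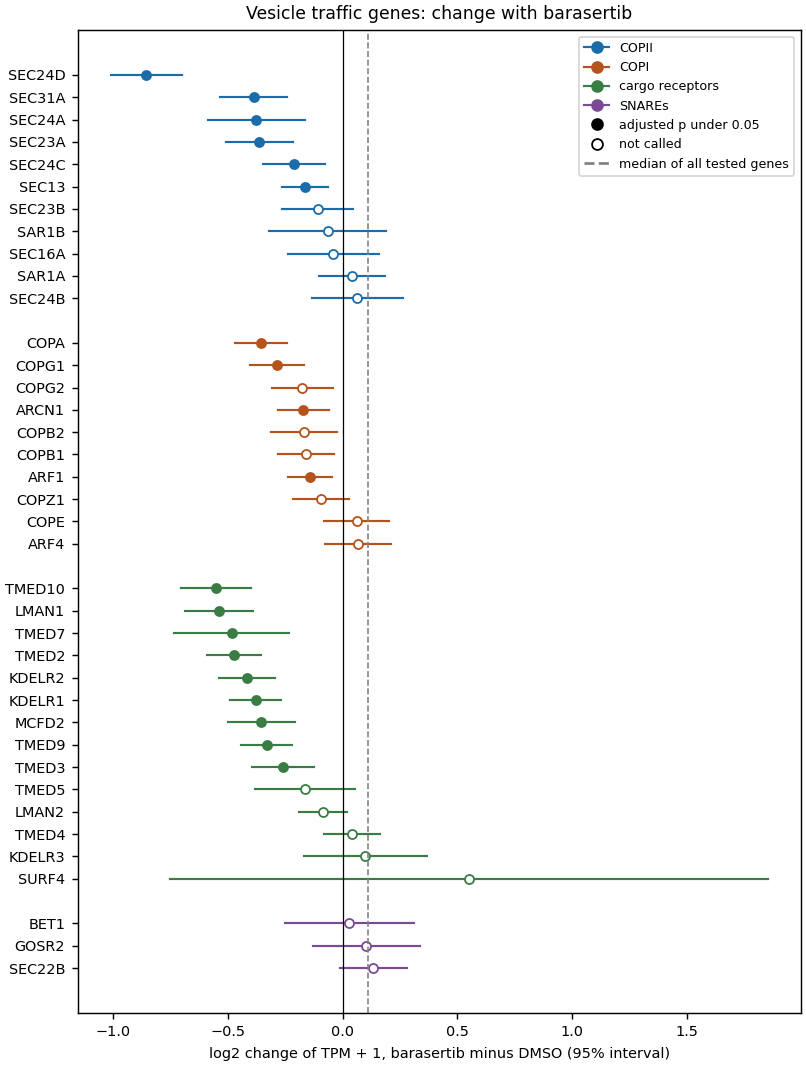
Log2 change of TPM + 1 (barasertib minus DMSO) with its 95% interval for the 38 tested genes, grouped and coloured by role, with filled points for genes called by limma at an adjusted p under 0.05, a solid line at 0 and a dashed line at the median of all tested genes (0.11). SEC24D at -0.85 is farthest to the left, the 19 filled points are all left of 0, and the interval of SURF4 runs from -0.75 to 1.85.

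The falls were also called under the other library scalings. Both of these moved all genes downward, which favours falls, so they could not test the direction against an upward shift. Median-of-ratios scaling, which assumes that most genes are unchanged, moved the median of all genes by -0.12, and 13.6% of all tested genes then fell and 11.0% rose. Under it 25 of the 38 vesicle traffic genes fell and 0 rose. Quantile scaling moved the median of all genes by -0.12 as well. The 19 genes above fell under TPM, median-of-ratios and quantile scaling alike, as did 982 of all 1037 tested genes that fell under TPM. Of the 3071 tested genes that rose under TPM, 1394 rose under all 3 scalings. With a library left out, the median log2 change over the 38 genes ran from -0.20 to -0.14, a smaller move than under median-of-ratios scaling (-0.30). These fits leave 1 library in a group, and fewer of all tested genes were called in them as well. A lost call therefore does not show that a result rests on that library. SEC23A, SEC24D, SEC31A, COPA, COPG1, TMED2, TMED9, TMED10, KDELR1, KDELR2, LMAN1 and MCFD2 were called with each of the 4 libraries left out in turn. The calls of ARCN1, ARF1, SEC13 and SEC24C were each lost whichever of the 4 libraries was left out. Those of SEC24A, TMED3 and TMED7 were lost without barasertib replicate 1, that of SEC24A also without either DMSO library, and that of TMED3 also without barasertib replicate 2 or DMSO replicate 2. With barasertib replicate 1 left out, 12 vesicle traffic genes fell in all, against 19 with every library. COPII calls numbered 4 without barasertib replicate 2 and 3 without any other library, and COPI calls 3 and 2 in the same way.

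**Figure D2:**
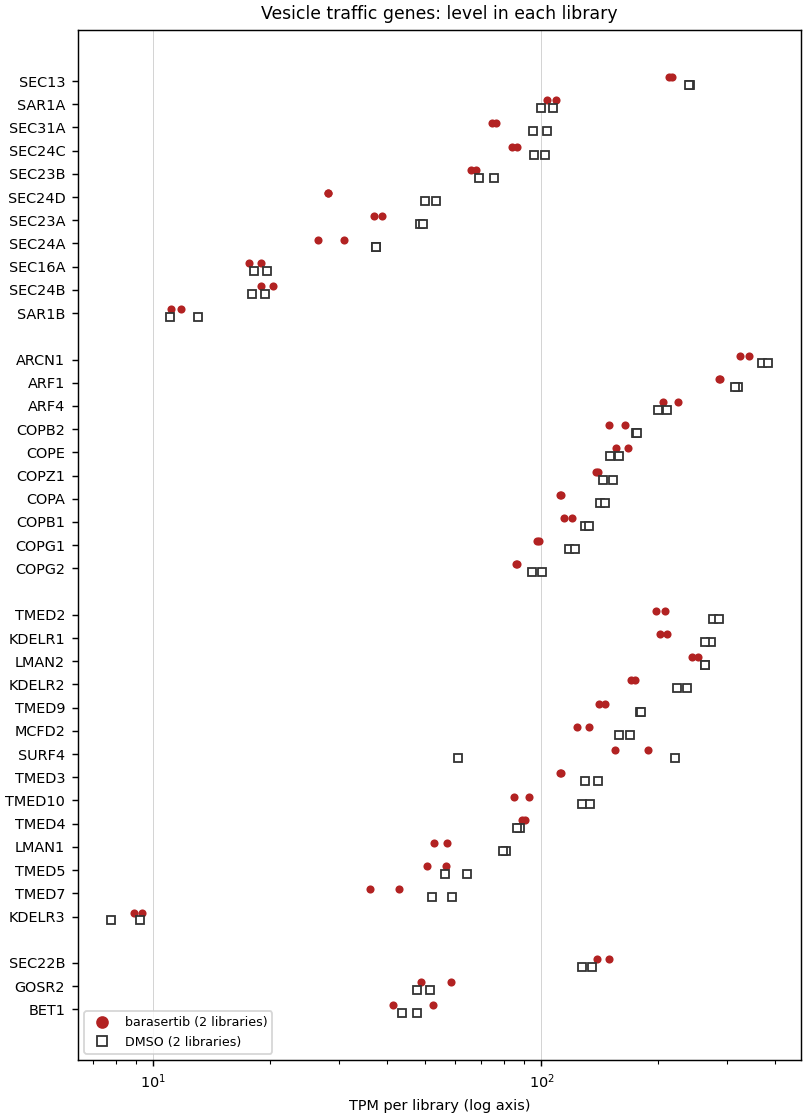
TPM in each of the 4 libraries (log axis) for the 38 tested genes, ordered by level within each role, with filled circles for barasertib and open squares for DMSO. Barasertib libraries lie left of the DMSO libraries for most genes, SEC24D shows the widest such gap, and DMSO replicate 1 stands alone at 61.1 TPM for SURF4.

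Promoter windows are shown as description, since the transcription factors known to control secretory genes bind short defined motifs. A link between these motifs and the falls was not tested. RefSeq windows (GRCh38.p14) run from 250 bases before a gene's start to 50 bases from it, and 34 of the 39 genes matched one; ARF4, KDELR2, SEC24D, TMED4 and TMED9 did not. Motifs were sought on both strands. The core of the unfolded protein response element, TGACGTGG, which the stress-induced factor XBP1 binds, was found in 8 of 34 genes (23.5%), against 137 of 10907 tested genes with a window (1.26%) and 253 of all 27305 genes with a window (0.927%). Each match follows within 30 bases, on the strand where it reads as given, with the core in capitals. Positions count from 1 at the RefSeq start, with -1 the base before it.
SEC23A (chr14:39103221-39103250, minus strand, core at -4 to 4): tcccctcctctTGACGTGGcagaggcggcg
SEC24A (chr5:134648595-134648624, plus strand, core at -179 to -172): gtgagagtcggTGACGTGGcggcgaggccg
SEC16A (chr9:136484707-136484736, plus strand, core at 16 to 23): ttcagtccggcTGACGTGGcaccagggcca
COPA (chr1:160343227-160343256, minus strand, core at 6 to 13): gagagggtcgcTGACGTGGaggcgtccgaa
COPB1 (chr11:14499841-14499870, plus strand, core at -48 to -41): gagtccttggcTGACGTGGaagggggtggg
COPB2, upstream match (chr3:139389825-139389854, plus strand, core at -163 to -156): actaagggccgTGACGTGGtgccgctgagc
COPB2, downstream match (chr3:139389632-139389661, plus strand, core at 31 to 38): gtcagactgacTGACGTGGaacttccggga
ARF1 (chr1:228082681-228082710, plus strand, core at -16 to -9): cccggaggcgcTGACGTGGccgccgtcaga
KDELR3 (chr22:38468039-38468068, minus strand, core at -46 to -39): tggccgggcggTGACGTGGccagggcggcc

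The core was found in 3 of 10 COPII genes with a window, 4 of 10 COPI genes, 1 of 11 cargo receptor genes and 0 of 3 SNARE genes. Its centre, ACGTG, which lies inside the core and is also read by other factors, was found in 26 of 34 vesicle traffic genes (76.5%), against 3531 of 10907 tested genes (32.4%). The 250 bases before the start of SEC24A hold the core and further ACGTG matches, here on the plus strand with every match on either strand in capitals.
SEC24A (chr5:134648535-134648784, plus strand): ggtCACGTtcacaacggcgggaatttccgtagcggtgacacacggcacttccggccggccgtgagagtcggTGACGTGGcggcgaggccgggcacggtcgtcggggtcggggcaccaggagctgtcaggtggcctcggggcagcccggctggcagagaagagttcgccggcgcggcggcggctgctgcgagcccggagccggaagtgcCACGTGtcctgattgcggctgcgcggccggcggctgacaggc

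The longer ER stress response element, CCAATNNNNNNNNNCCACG, bound by ATF6 together with NF-Y, was found in 0 of 34 vesicle traffic genes, in 16 of 10907 tested genes (0.147%) and in 6 of 14 ER chaperone and folding genes (42.9%). The CCAAT box alone, which the first element contains, was found in 14 of 34 vesicle traffic genes (41.2%) and 43.4% of tested genes. The promoter of HSPA5, the main ER chaperone, is shown beside the sites above as a contrast, with the fixed bases of the element in capitals (-66 to -48).
HSPA5 (chr9:125241385-125241414, minus strand): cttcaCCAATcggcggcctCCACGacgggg

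Of the 8 vesicle traffic genes with the core, 4 fell (SEC23A, SEC24A, COPA and ARF1), and 12 of the 25 other tested genes with a window did. Among all tested genes with a window, 24 of 137 with the core fell (17.5%), against 806 of 10770 without it (7.48%). The corresponding shares for the ER stress response element were 13 of 16 (81.2%) and 817 of 10891 (7.50%). The 13 include the 6 ER chaperone and folding genes with this element, so this share is not separate from the fall of that list. These are counts of letters in fixed windows, and binding was not measured.

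**Figure D3:**
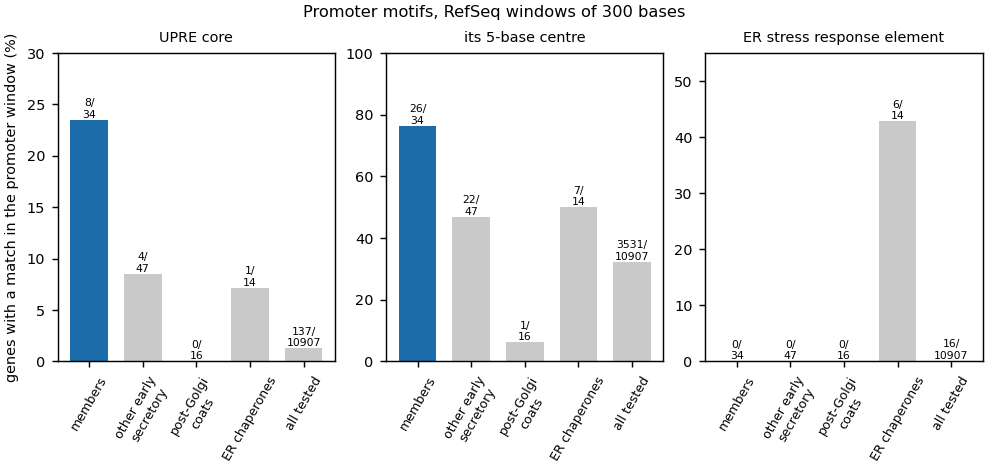
Share of genes (%) with a match in the promoter window for the unfolded protein response element core (left), its centre ACGTG (middle) and the ER stress response element (right), with the counts above each bar, for the vesicle traffic genes (blue) and for other early secretory genes, post-Golgi coat genes, ER chaperones and all tested genes (grey). The vesicle traffic genes show 8 of 34, 26 of 34 and 0 of 34 genes with a match.

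In the COPII coat, 6 of 11 genes fell and the loss was deepest in SEC24D, a cargo-binding subunit of the inner layer. SEC24D (gene ID 9871, hg19 chr4:119643978-119757351, minus strand) had 28.2 and 28.1 TPM in the barasertib libraries, against 50.2 and 53.4 TPM in the DMSO libraries. The groups were far apart and replicates nearly equal. The log2 change was -0.85 (SE 0.06, 95% interval -1.01 to -0.70, limma adjusted p = 0.000759), which is 1.81-fold lower, and it was the only vesicle traffic gene called that changed by at least 1.5-fold. Over the 15 alternative fits its log2 change ran from -0.99 to -0.78 and its adjusted p from 6.36e-05 to 0.0141.

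The other SEC24 paralogs select overlapping sets of cargo. SEC24A had 26.5 and 31.0 TPM with barasertib and 37.6 and 37.4 TPM with DMSO, with no overlap (log2 change -0.38, SE 0.09, limma adjusted p = 0.0233). SEC24C, the most abundant paralog, had 83.9 and 86.7 TPM with barasertib and 95.9 and 102 TPM with DMSO, again without overlap (log2 change -0.21, SE 0.06, limma adjusted p = 0.0360). SEC24B did not pass the test and its groups overlapped, with 18.9 and 20.3 TPM with barasertib and 19.4 and 17.9 TPM with DMSO (log2 change 0.06, 95% interval -0.13 to 0.26, limma adjusted p = 0.581). The balance of the family therefore differed between these libraries, in shares that a single scaling factor per library cannot alter. The exact permutation p was 0.333 for the shares of SEC24B, SEC24C and SEC24D, the smallest that 2 libraries against 2 can give. SEC24D made up 17.9% and 16.9% of summed SEC24 TPM with barasertib and 24.7% and 25.3% with DMSO. SEC24C made up 53.2% and 52.2% with barasertib and 47.2% and 48.4% with DMSO, and SEC24B 12.1% ± 0.158 with barasertib and 9.04% ± 0.748 with DMSO (mean ± SD, n = 2 each). SEC24A kept overlapping shares of 16.8% and 18.6% with barasertib and 18.5% and 17.8% with DMSO.

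**Figure D4:**
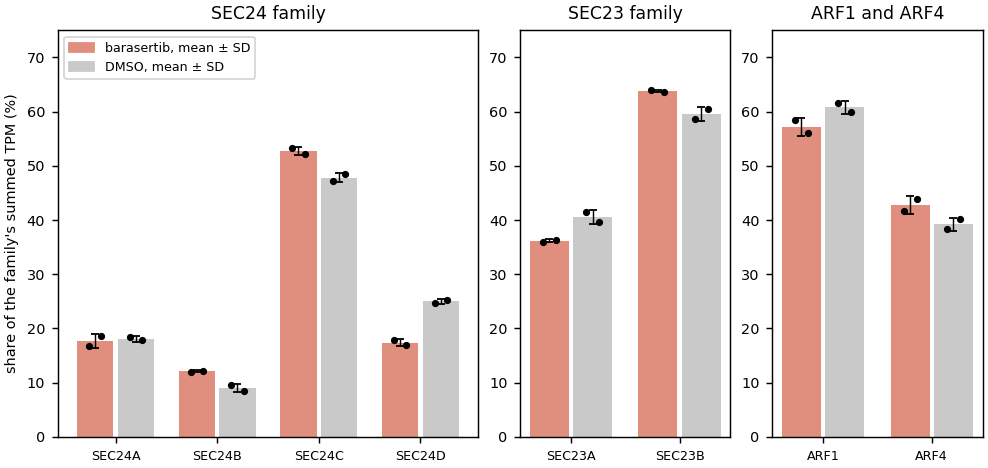
Share of a family's summed TPM (%) held by each paralog of SEC24, SEC23 and the ARF1 and ARF4 pair, with bars for the mean of 2 libraries, error bars for the SD, points for single libraries, barasertib in red and DMSO in grey. SEC24D holds 17.4% with barasertib against 25.0% with DMSO, and SEC24C 52.7% against 47.8%.

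SEC23 pairs with SEC24 and activates the GTPase of SAR1. SEC23A had 37.1 and 38.8 TPM with barasertib, against 48.7 and 49.4 TPM with DMSO, a log2 change of -0.36 (SE 0.06, limma adjusted p = 0.00828) with no overlap. SEC23B, the more abundant paralog, had 65.8 and 67.7 TPM with barasertib and 68.9 and 75.3 TPM with DMSO, a gap that did not pass the test (log2 change -0.11, 95% interval -0.26 to 0.05, limma adjusted p = 0.242). The share of SEC23A in the pair was 36.0% and 36.4% with barasertib and 41.4% and 39.6% with DMSO. The ratio of summed SEC24 to summed SEC23 TPM was 1.53 and 1.56 with barasertib and 1.73 and 1.69 with DMSO, so the ranges did not overlap.

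Both outer coat genes fell. SEC31A had 74.5 and 76.5 TPM with barasertib and 103 and 94.99 TPM with DMSO (log2 change -0.39, SE 0.06, limma adjusted p = 0.00693). Its start lies within THAP9-AS1 on the same strand, which had 24.3 and 26.5 TPM with barasertib and 20.8 and 23.0 TPM with DMSO and was not called (limma adjusted p = 0.113). SEC13, which also serves in the nuclear pore, was the most abundant COPII gene, with 213 and 217 TPM with barasertib and 241 and 240 TPM with DMSO (log2 change -0.16, SE 0.04, limma adjusted p = 0.0298). Both barasertib libraries lay below both DMSO libraries for each gene.

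The genes that start the coat showed no detectable difference. SAR1A had 103.5 and 109 TPM with barasertib and 99.5 and 107 TPM with DMSO (log2 change 0.04, 95% interval -0.10 to 0.19, limma adjusted p = 0.618). SAR1B had 11.1 and 11.8 TPM with barasertib and 11.04 and 13.0 TPM with DMSO (log2 change -0.07, 95% interval -0.32 to 0.19, limma adjusted p = 0.669). SAR1A made up 90.3% and 90.3% of the pair with barasertib and 90.0% and 89.1% with DMSO. SEC16A, the exit site scaffold, had 19.0 and 17.7 TPM with barasertib and 19.6 and 18.2 TPM with DMSO (log2 change -0.04, 95% interval -0.24 to 0.16, limma adjusted p = 0.733). The groups overlapped for all 3 genes.

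In the COPI coat, the losses were shallower than that of SEC24D and uneven between subunits. COPA, the alpha subunit (gene ID 1314, hg19 chr1:160258377-160313354, minus strand), had 112 and 112 TPM in the barasertib libraries and 142 and 145.5 TPM in the DMSO libraries. Both barasertib values lay below both DMSO values (log2 change -0.36, SE 0.05, 95% interval -0.47 to -0.24, limma adjusted p = 0.00383). Its start overlaps that of NCSTN on the opposite strand, and NCSTN had 88.6 and 88.2 TPM with barasertib and 107 and 104 TPM with DMSO (log2 change -0.25, limma adjusted p = 0.0139). Use of strand in making the values is not stated in the labels, so reads from overlapping genes may not have been kept apart.

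Of the paralogous gamma subunits, COPG1 had 97.6 and 98.8 TPM with barasertib and 118 and 122 TPM with DMSO, a fall of 0.29 on the log2 scale (SE 0.05, limma adjusted p = 0.00911). COPG2 had 86.5 and 85.8 TPM with barasertib and 100.3 and 94.5 TPM with DMSO, and missed the threshold (log2 change -0.17, 95% interval -0.31 to -0.04, limma adjusted p = 0.0553). COPG2 overlaps MEST on the opposite strand, which rose by 0.19 (limma adjusted p = 0.0394). The share of COPG1 in the pair was 53.0% and 53.5% with barasertib and 54.0% and 56.3% with DMSO.

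ARCN1, the delta subunit, was the most abundant vesicle traffic gene, with 326 and 343 TPM with barasertib and 370 and 383 TPM with DMSO (log2 change -0.17, SE 0.05, limma adjusted p = 0.0360), and the groups did not overlap. ARF1 had 289 and 288 TPM with barasertib and 321 and 315.5 TPM with DMSO, also without overlap (log2 change -0.14, SE 0.04, limma adjusted p = 0.0394). The calls of both were among those lost when any library was left out. ARF4, a related GTPase, had 206 and 225 TPM with barasertib and 200.2 and 211 TPM with DMSO (log2 change 0.07, 95% interval -0.08 to 0.21, limma adjusted p = 0.421). ARF4 held 41.6% and 43.9% of the ARF1 and ARF4 sum with barasertib and 38.4% and 40.1% with DMSO.

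The remaining subunits did not pass the test. COPB1 (beta) had 115 and 120 TPM with barasertib and 129 and 133 TPM with DMSO (log2 change -0.16, 95% interval -0.28 to -0.04, limma adjusted p = 0.0589). COPB2 (beta-prime) had 149 and 164.5 TPM with barasertib and 175.5 and 177 TPM with DMSO (log2 change -0.17, 95% interval -0.31 to -0.03, limma adjusted p = 0.0782). In both, the groups did not overlap. COPZ1 (zeta) had 138 and 140 TPM with barasertib and 144 and 153 TPM with DMSO (log2 change -0.09, limma adjusted p = 0.206), and COPE (epsilon) had 167 and 155 TPM with barasertib and 159 and 150 TPM with DMSO (log2 change 0.06, limma adjusted p = 0.455). COPE was the only one of these 4 whose groups overlapped. Under median-of-ratios scaling COPB1, COPB2, COPG2 and COPZ1 were called lower, as were SEC23B of the COPII coat and the receptor LMAN2. COPZ2, the second zeta gene, had 0.331 and 0.113 TPM with barasertib and was listed at 0 in both DMSO libraries, which was too low to test.

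Because the coat assembles as a unit, each subunit's level was set against the median subunit of its library, with the gamma paralogs summed. COPA stood at 0.750 and 0.722 of the median subunit with barasertib and at 0.893 and 0.952 with DMSO. ARCN1 stood at 2.19 and 2.21 with barasertib and 2.33 and 2.50 with DMSO, and COPE at 1.12 and 1.00 with barasertib and 1.00 and 0.979 with DMSO. COPB1 stood at 0.77 and 0.772 with barasertib and 0.814 and 0.868 with DMSO, and COPB2 at 1.00 and 1.06 with barasertib and 1.11 and 1.15 with DMSO. The gamma sum stood at 1.24 and 1.19 with barasertib and 1.37 and 1.42 with DMSO. Messages of the coat were thus in unequal amounts in both groups, with delta highest in every library. Alpha, beta, beta-prime, gamma and delta were each lower against the median subunit with barasertib, without overlap. COPZ1 stood at 0.928 and 0.902 with barasertib and 0.908 and 1.00 with DMSO, with overlap. The median subunit is itself one of those compared and was not the same gene in every library. It was COPB2 in barasertib replicate 1, COPE in barasertib replicate 2 and DMSO replicate 1, and COPZ1 in DMSO replicate 2. The lower ratios are therefore not separate from the lack of called falls in COPE and COPZ1.

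Under TPM, cargo receptors held the largest share of calls, 9 of 14 genes, and 5 of the 7 p24 genes listed fell. This order depended on the unit and scaling. Under either median-of-ratios or quantile scaling, 8 of 10 tested COPI genes and 10 of 14 cargo receptor genes fell. With FPKM, 7 of 10 COPI genes and 9 of 14 cargo receptor genes fell. TMED10 (gene ID 10972, hg19 chr14:75598171-75643349, minus strand), a p24 protein that binds both coats, had 84.8 and 92.8 TPM in the barasertib libraries and 127.5 and 133.5 TPM in the DMSO libraries. No barasertib value reached the DMSO values (log2 change -0.55, SE 0.06, 95% interval -0.70 to -0.40, limma adjusted p = 0.00253). TMED2, its beta-type partner and the most abundant p24 gene, had 197 and 208 TPM with barasertib and 276 and 287.5 TPM with DMSO (log2 change -0.47, SE 0.05, limma adjusted p = 0.00189). TMED9 had 145 and 141 TPM with barasertib and 180 and 181 TPM with DMSO (log2 change -0.33, SE 0.05, limma adjusted p = 0.00457). In neither gene did the groups overlap.

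TMED7 had 36.1 and 43.0 TPM with barasertib and 52.3 and 58.8 TPM with DMSO (log2 change -0.48, SE 0.10, limma adjusted p = 0.0183). Its exons are shared with the readthrough gene TMED7-TICAM2 (10.6 and 11.5 TPM with barasertib, 12.4 and 12.6 TPM with DMSO), so its value is uncertain. TMED3 had 112.5 and 112 TPM with barasertib and 129 and 140 TPM with DMSO (log2 change -0.26, SE 0.06, limma adjusted p = 0.0187). Neither gene's groups overlapped, though both calls were lost without barasertib replicate 1. The other 2 p24 genes of the list did not pass the test. TMED5 had 50.7 and 56.9 TPM with barasertib and 56.4 and 64.4 TPM with DMSO (log2 change -0.16, limma adjusted p = 0.210), and its groups overlapped. TMED4 had 90.6 and 89.0 TPM with barasertib and 88.1 and 86.3 TPM with DMSO (log2 change 0.04, 95% interval -0.08 to 0.16, limma adjusted p = 0.558), without overlap. TMED4 held 12.3% ± 0.452 of the summed TPM of the listed p24 genes with barasertib and 9.38% ± 0.435 with DMSO (mean ± SD, n = 2 each). TMED2 held 27.8% ± 0.383 with barasertib and 30.3% ± 0.106 with DMSO. TMED1, a p24 gene outside the list, had 35.5 and 31.3 TPM with barasertib and 16.0 and 35.2 TPM with DMSO. Its groups overlapped and it was not called (log2 change 0.47, limma adjusted p = 0.312).

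Both abundant KDEL receptors fell to a like extent. KDELR1 had 210 and 203 TPM with barasertib and 273.5 and 263.5 TPM with DMSO (log2 change -0.38, SE 0.05, limma adjusted p = 0.00304). KDELR2 had 170 and 175 TPM with barasertib and 223 and 238 TPM with DMSO (log2 change -0.42, SE 0.05, limma adjusted p = 0.00305). The groups did not overlap in either, and KDELR1 kept overlapping shares of the family, 54.0% and 52.4% with barasertib and 54.2% and 51.6% with DMSO. KDELR3, the rarest, had 8.91 and 9.35 TPM with barasertib and 7.76 and 9.21 TPM with DMSO, with overlap (log2 change 0.10, 95% interval -0.17 to 0.37, limma adjusted p = 0.529). Its end meets that of DDX17 on the opposite strand, which fell by 0.35 (limma adjusted p = 0.00394).

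LMAN1, the lectin of the glycoprotein receptor, had 52.9 and 57.2 TPM with barasertib and 80.9 and 79.5 TPM with DMSO (log2 change -0.54, SE 0.06, limma adjusted p = 0.00252). MCFD2, its calcium-binding partner, had 123 and 133 TPM with barasertib and 158.5 and 169 TPM with DMSO (log2 change -0.35, SE 0.06, limma adjusted p = 0.00854). Both genes of the receptor were thus lower in every barasertib library than in any DMSO library. LMAN2, a related lectin, had 253 and 244 TPM with barasertib and 263 and 263 TPM with DMSO, with no overlap but no call (log2 change -0.09, 95% interval -0.19 to 0.02, limma adjusted p = 0.179).

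SURF4, a receptor for soluble secreted proteins, could not be given a direction. It had 155 and 188.5 TPM with barasertib and 61.1 and 220 TPM with DMSO, so that the DMSO libraries lay on either side of the barasertib libraries. The log2 change was 0.55 (95% interval -0.75 to 1.85, limma adjusted p = 0.470). Without DMSO replicate 1 it was -0.37 (limma adjusted p = 0.0539), and without DMSO replicate 2 it was 1.47 (limma adjusted p = 0.000241). Each of these fits assumes that the lone DMSO library varies like the others. Among the 37 vesicle traffic genes that averaged 10 TPM or more, SURF4 alone differed by over 2-fold between DMSO replicates (3.61-fold), as did 46 of 9051 genes in all (0.508%). TMED1, outside the list, was also among the 46, with DMSO replicate 1 again the lower (16.0 against 35.2 TPM).

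The SNARE genes were not called. SEC22B had 139 and 150 TPM with barasertib and 127 and 135 TPM with DMSO, without overlap (log2 change 0.13, 95% interval -0.01 to 0.28, limma adjusted p = 0.141). It has near-identical copies in the genome, so its level is uncertain. GOSR2 had 49.0 and 58.4 TPM with barasertib and 47.8 and 51.7 TPM with DMSO (log2 change 0.10, limma adjusted p = 0.444). BET1, with the largest adjusted p of the set, had 41.4 and 52.4 TPM with barasertib and 47.7 and 43.7 TPM with DMSO (log2 change 0.03, 95% interval -0.25 to 0.31, limma adjusted p = 0.864). Values overlapped in GOSR2 and BET1.

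Summed over each role, the message was lower with barasertib for the coats and receptors but not for the SNAREs. COPII summed to 682 and 704 TPM with barasertib and 795 and 809 TPM with DMSO (86.4% of the DMSO mean). COPI summed to 1685 and 1733 TPM with barasertib and 1859 and 1883 TPM with DMSO (91.3%). Cargo receptors summed to 1690 and 1751 TPM with barasertib and 1978 and 2194 TPM with DMSO (82.5%), or, without SURF4, to 1536 and 1563 TPM with barasertib and 1916 and 1973 TPM with DMSO (79.7%). Groups did not overlap in these sums. The sum of the listed p24 genes, which leaves out TMED1, stood at 78.5% of the DMSO mean and the KDEL receptor sum at 76.5%. SNAREs summed to 229 and 260 TPM with barasertib and 223 and 231 TPM with DMSO, with overlap, at 108.0% of the DMSO mean under TPM and 98.3% under median-of-ratios scaling. Under that scaling COPII, COPI and cargo receptors stood at 78.7%, 83.2% and 75.1%. The exact two-sided permutation p was 0.333 for each coat and receptor sum, the smallest that 2 libraries against 2 can give, and 0.667 for the SNAREs.

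**Figure D5:**
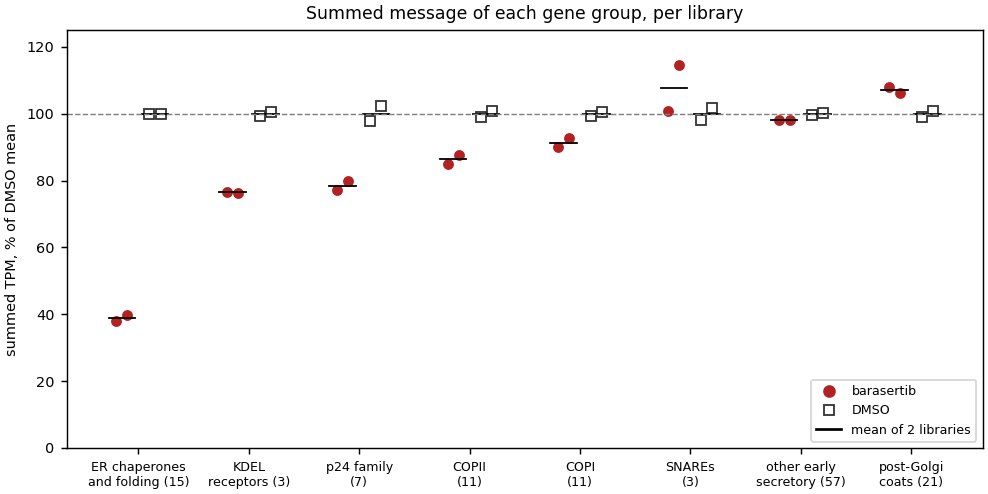
Summed TPM of each gene group in each library as a percentage of the DMSO mean (barasertib filled circles, DMSO open squares, short lines for means of 2 libraries), with the number of genes in each group under its name. The barasertib means run from 38.9% for ER chaperones and folding enzymes to 76.5% for KDEL receptors, 86.4% for COPII and 91.3% for COPI, while SNAREs (108.0%) and post-Golgi coats (107.2%) lie above 100% under TPM but below it under median-of-ratios scaling (98.3% and 97.6%).

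The messages of proteins that KDEL receptors retrieve fell further than those of the receptors. Of 15 ER chaperones and folding enzymes, a list wider than the retrieved proteins, 15 fell, against 7.44% of all tested genes. These genes were known to fall from earlier results of these data, so the count is given for size only. The median log2 change of the 15 genes was -1.08. Their sum was 7127 and 7505 TPM with barasertib and 18817 and 18833 TPM with DMSO (38.9%). Summed TPM of 6 retrieved proteins (HSPA5, HSP90B1, CALR, PDIA4, PDIA6 and P4HB) was 13.1 and 13.7 times that of the KDEL receptors with barasertib and 28.7 and 28.6 times with DMSO, a ratio chosen after values were seen. The ratio of ER chaperone to COPII message was 10.5 and 10.7 with barasertib and 23.7 and 23.3 with DMSO. Neither ratio overlapped between groups, and a single scaling factor per library cannot alter them.

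Among 57 other genes of ER and Golgi traffic, 56 were tested, of which 9 fell (16.1%, against 7.44% of all tested genes) and 4 rose (7.14%, against 22.0%), with a median log2 change of 0.04. Their summed level was 4256 and 4261 TPM with barasertib and 4321 and 4354 TPM with DMSO (98.2%). MIA3, which loads bulky cargo such as collagen at exit sites, had 30.2 and 31.2 TPM with barasertib and 43.5 and 44.8 TPM with DMSO (log2 change -0.51, limma adjusted p = 0.00305). Its relative MIA2 had 10.0 and 12.6 TPM with barasertib and 16.1 and 18.1 TPM with DMSO (log2 change -0.56, limma adjusted p = 0.0215). USO1, the tether p115, had 213 and 231 TPM with barasertib and 312 and 304 TPM with DMSO (log2 change -0.47, limma adjusted p = 0.00227). STX5, a Golgi SNARE that works with the 3 SNARE genes above, had 55.1 and 55.9 TPM with barasertib and 75.1 and 74.4 TPM with DMSO (log2 change -0.42, limma adjusted p = 0.00324). NBAS, GORASP2, RAB1A, ERGIC1 and ERGIC3 also fell. Only MIA3, USO1 and STX5 of these 9 were called with each library left out in turn. The call of MIA2 was lost without barasertib replicate 1 or DMSO replicate 2, that of GORASP2 without barasertib replicate 1, that of RAB1A without barasertib replicate 2 or DMSO replicate 2, and those of NBAS, ERGIC1 and ERGIC3 whichever library was left out. Of 7 ARF genes and their exchange and activating factors, 0 were called by limma, with 0 at an unadjusted p under 0.05, a threshold at which all tested genes were not counted. The 4 that rose, named after their values were seen, were ERGIC2, TRAPPC1, YKT6 and RAB1B. Of these 4, 0 held under all 3 scalings, against 1394 of all 3071 tested genes that rose under TPM. Their calls were also not kept with each library left out in turn.

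Coats that act after the Golgi had shares of calls near those of all tested genes. Of 21 clathrin, adaptor and retromer genes, 6 rose (28.6%, against 22.0% of all tested genes) and 1 fell (4.76%, against 7.44%) under TPM, with a median log2 change of 0.13. Of the 6 rises, 0 held under all 3 scalings, and 1 to 3 genes rose with a library left out (1 without barasertib replicate 1 or DMSO replicate 1, 2 without DMSO replicate 2 and 3 without barasertib replicate 2). Of all 3071 tested genes that rose under TPM, 1394 held under all 3 scalings. VPS29, a retromer subunit, had 65.4 and 66.8 TPM with barasertib and 51.2 and 54.0 TPM with DMSO (log2 change 0.32, limma adjusted p = 0.0104). GGA3, a clathrin adaptor, had 54.3 and 52.1 TPM with barasertib and 44.2 and 44.1 TPM with DMSO (log2 change 0.27, limma adjusted p = 0.0198). AP3D1, the delta subunit of the AP-3 adaptor and the only one that fell, had 135 and 129 TPM with barasertib and 155 and 154 TPM with DMSO (log2 change -0.23, limma adjusted p = 0.0183), a call lost without barasertib replicate 2, DMSO replicate 1 or DMSO replicate 2. Of the 16 of these genes with a promoter window, 0 held the unfolded protein response element core, and 1 held ACGTG. The difference between early and late coats was not tested as such.

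Of 10 transcription factors that act on secretory genes, 9 were tested, 5 fell (55.6%, against 7.44% of all tested genes) and 1 rose (11.1%, against 22.0%). XBP1, whose message is spliced by the stress sensor IRE1, had 211 and 219.5 TPM with barasertib and 283 and 269 TPM with DMSO (log2 change -0.36, limma adjusted p = 0.00419). ATF6, cleaved in the Golgi on ER stress, had 19.6 and 20.2 TPM with barasertib and 29.2 and 33.1 TPM with DMSO (log2 change -0.62, limma adjusted p = 0.00437). CREB3L2, a factor known for control of COPII genes in cartilage of mouse and fish, had 16.4 and 17.1 TPM with barasertib and 25.1 and 25.1 TPM with DMSO (log2 change -0.56, limma adjusted p = 0.00356). ATF4 and CREB3L4 fell as well, by 0.29 and 0.25 on the log2 scale, and the call of CREB3L4 was lost whichever library was left out. TFE3 had 51.5 and 46.7 TPM with barasertib and 35.8 and 41.1 TPM with DMSO (log2 change 0.35, limma adjusted p = 0.0327), a rise that did not hold under all 3 scalings and was lost without either barasertib library or without DMSO replicate 1. Of all 3071 tested genes that rose under TPM, 1394 held under all 3 scalings. TPM does not show splicing or cleavage, so the activity of these transcription factors was not measured.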

How the data were processed

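Per the labels' protocols, RNA was purified on columns and libraries of polyadenylated RNA were made with a TruSeq kit. Per the submitters' processing notes, HISAT2, StringTie and the hg19 build were used; versions, options and the use of strand are not stated there. Per the file headers, the deposited files hold coverage (signal, mean depth per base), FPKM and TPM for each gene row. The files hold no counts, so depth was estimated by dividing coverage by FPKM.

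TPM rows were summed per gene ID (336 to 407 IDs per library stood on several rows; each vesicle traffic gene stood on 1). RefSeq names (GRCh38.p14) matched 27559 of 27685 IDs. Gene positions are hg19, as in the files, and promoter positions GRCh38.p14. The 13938 genes that averaged 1 TPM or more were tested with limma 3.58.1 (R 4.3.3). The model took log2(TPM + 1) and fitted group alone, with moderation by a mean-variance trend (residual df 2, prior df 4.09). Tests were two-sided, p-values were Benjamini-Hochberg adjusted over all these genes, and the threshold was 0.05. A log2 change on this scale understates changes of low genes. Sums were compared with exact permutation tests. The script was tested on simulated data.

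The 39 genes and the lists were chosen with earlier results of these data known. All 39 are given by their values; of each other list, up to 4 called genes with the largest change are named with values, and any further gene of those lists was named after its value was seen. Alternatives covered filter, pseudocount, unit, scaling, moderation, blocking, row choice and leaving out each library; the cargo receptor sum without SURF4 was added after seeing the data.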

Additional observations from a re-analysis of the deposited data

How the results depend on the processing

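Against 19 vesicle traffic genes that fell, 14 fell without a low-value filter, 12 without a mean-variance trend, 22 with FPKM, 25 with median-of-ratios and 24 with quantile scaling, and 1 fell by at least 1.5-fold; 12 to 15 fell with 1 library left out, with 0 to 1 higher (SURF4). No single vesicle traffic gene changed sign with a call. All tested genes that rose numbered 3071, against 1528 (median-of-ratios), 1649 (quantile) and 992 (at least 1.5-fold), and those that fell 1037, against 1891, 1590, 674 (no trend) and 243 (at least 1.5-fold); with a library left out the counts were 1365 to 2181 and 601 to 699.

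COPII genes that fell numbered 3 without the trend, 1 at 1.5-fold and 3 to 4 with a library left out. COPI genes that fell numbered 2 without a filter, 7 with FPKM, 8 with either other scaling, 2 without the trend, 0 at 1.5-fold and 2 to 3 with a library left out. Cargo receptor genes that fell numbered 0 at 1.5-fold and 7 to 9 with a library left out (0 to 1 higher). The other early secretory genes that rose numbered 1 without a filter, 0 under median-of-ratios or quantile scaling, 0 without the trend, 0 at 1.5-fold and 0 to 4 with a library left out; those that fell numbered 16 (median-of-ratios), 4 (no trend), 0 (1.5-fold) and 4 to 6. Post-Golgi coat genes that rose numbered 3, 0, 2, 1 and 0 without a filter, under median-of-ratios, under quantile scaling, without the trend and at 1.5-fold, and 1 to 3 with a library left out; those that fell numbered 2 (median-of-ratios), 0 (no trend), 0 (1.5-fold) and 0 to 1. Transcription factors that rose numbered 0 under each of those 5 settings and 0 to 1 with a library left out; those that fell numbered 1 at 1.5-fold and 4 with any library left out. All 15 ER chaperone and folding genes fell with any library left out.

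Under median-of-ratios scaling the median log2 change was -0.30 over all vesicle traffic genes, -0.30 for COPII, -0.30 for COPI, -0.48 for cargo receptors and -0.029 for SNAREs (against 0.10); the log2 ratio of sums was -0.35, -0.27, -0.41 and -0.025 (against 0.11) for the 4 roles. Quantile scaling gave medians of -0.26 (COPII) and -0.25 (COPI), and FPKM gave -0.18 for the COPI median and -0.15 for its sum. With a library left out, medians ran from -0.20 to -0.14 over all the genes, -0.18 to -0.15 (COPII), -0.18 to -0.13 (COPI), -0.36 to -0.32 (cargo receptors) and -0.02 to 0.20 (SNAREs), and sums from -0.24 to -0.19, -0.15 to -0.11, -0.35 to -0.20 and 0.02 to 0.20. Other than the scalings, whose shift of all genes is given above, the cause of these moves was not tested.

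Replicates carry numbers, and the deviations of barasertib replicate 1 and DMSO replicate 1 from their group means had a correlation of 0.0229 across genes; with 2 libraries a group the second pair mirrors the first, so the numbers were not taken to pair libraries. With the replicate block, 19 vesicle traffic genes fell and 0 rose. Depth is known only by estimate, and with 2 libraries a group the smallest vesicle traffic change called was that of ARF1 (log2 -0.14).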
